A study of Mus musculus with 3 samples.

Results

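The transcription factors that specify and maintain the trophectoderm, the outer epithelium of the blastocyst, were examined in low-input RNA-Seq libraries of NOD and B6 mouse blastocysts. The 10 genes Cdx2, Eomes, Gata3, Gata2, Tfap2c, Tfap2a, Elf5, Elf3, Tead4 and Hand1 were taken by symbol from the 24063 genes of the count table. All 10 were found, and 9 of them passed the filter on low counts. The series held 3 libraries, 1 from the diabetes-resistant strain B6 (C57BL/6) and 2 from the diabetes-prone strain NOD, here called NOD 1 and NOD 2, all untreated. The labels give whole blastocysts as the input of each library, whereas the methods of the study describe single inner cell masses (ICMs) obtained by immunosurgery, which lyses the trophectoderm and leaves the ICM. The labels give neither the embryonic day nor the number of embryos behind each library.

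In the mouse embryo, outer cells become polarized and switch off Hippo signalling, so that the coactivator Yap1 enters the nucleus and acts with Tead4 to turn on Cdx2 and Gata3. Cdx2 and its partners hold the outer cells in the trophectoderm and keep Pou5f1 (Oct4) and Nanog low there, while the ICM keeps both genes on. Eomes, Tfap2c and Elf5 maintain the trophoblast stem cell state, and Hand1 and Gata2 are better known from later trophoblast, in which Hand1 drives the formation of giant cells.

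Counts on genes summed to 12505685 in B6 against 33891715 in NOD 1 and 36171013 in NOD 2. Levels of a gene are compared between libraries in CPM (counts relative to the library total, scaled by edgeR's TMM factors), and levels of different genes within a library in FPKM (counts relative to the unscaled library total and to the length of the counted transcript). Values for NOD are the mean ± SD of 2 libraries. B6 has 1 library and no spread of its own, so that the tests assume that it varies like the NOD libraries, and an exact permutation of 1 library against 2 cannot by itself give less than p = 0.333. Nothing in the labels says whether the NOD libraries came from separate litters, so their spread may be technical in part.

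Promoters of 7 of the factors were found in the RefSeq table of GRCm38.p6, and 6 of these factors have an entry at the start site of the counted transcript. Elf5 and Gata2 also have an entry at another start site, and Tfap2a has entries at other start sites only. Windows of these other entries held TEAD letters in Elf5 and CDX letters in Gata2 and Tfap2a, and are left out of the counts below. No entry was found for Tfap2c, Tead4 and Hand1. The 250 bases before the counted start site are shown for the 4 factors whose windows there held the letters of a TEAD, AP-2 or POU motif. The windows of Elf5 and Eomes at the counted start site, which held only CDX letters, were searched in the same way and are not shown. Capitals mark the matches on either strand, and the motifs were chosen after the sequences and values had been seen.
Cdx2 (chr5:147307250-147307499, minus strand): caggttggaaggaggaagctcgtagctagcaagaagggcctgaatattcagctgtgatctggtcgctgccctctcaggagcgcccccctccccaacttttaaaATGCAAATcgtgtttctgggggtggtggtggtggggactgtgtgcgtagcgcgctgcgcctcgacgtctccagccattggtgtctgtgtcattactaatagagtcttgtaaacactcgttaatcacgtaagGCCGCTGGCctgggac
Gata3 (chr2:9878601-9878850, minus strand): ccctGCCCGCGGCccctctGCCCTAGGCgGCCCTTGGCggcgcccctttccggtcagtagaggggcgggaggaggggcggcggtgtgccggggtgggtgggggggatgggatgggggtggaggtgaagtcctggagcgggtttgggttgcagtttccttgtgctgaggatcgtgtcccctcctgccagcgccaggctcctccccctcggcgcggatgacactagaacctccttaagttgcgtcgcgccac
Elf3 (chr1:135258473-135258722, minus strand): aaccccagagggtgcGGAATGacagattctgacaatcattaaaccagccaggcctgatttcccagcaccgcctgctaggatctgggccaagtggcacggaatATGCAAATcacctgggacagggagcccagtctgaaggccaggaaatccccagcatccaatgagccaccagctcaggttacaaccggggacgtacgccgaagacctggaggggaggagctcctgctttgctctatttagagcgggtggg
Gata2 (chr6:88198414-88198663, plus strand): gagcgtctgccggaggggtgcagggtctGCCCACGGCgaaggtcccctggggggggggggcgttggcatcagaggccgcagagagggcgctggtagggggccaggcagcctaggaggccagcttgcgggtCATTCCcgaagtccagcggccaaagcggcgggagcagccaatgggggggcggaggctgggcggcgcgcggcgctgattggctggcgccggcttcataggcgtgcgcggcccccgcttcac

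The octamer ATGCAAAT, the letters bound by POU factors such as Oct4, stood in the windows of Cdx2 and Elf3, 2 of the 6 searched, and in 1.6% of the 32841 promoters of the same length. It began 147 bases before the start site in Cdx2 and 148 bases before it in Elf3. GCCNNNGGC, the palindrome of AP-2 factors such as Tfap2c and Tfap2a, was found in Gata3, Cdx2 and Gata2 and in 13.7% of all promoters. The window of Gata3 held it 3 times. The TEAD letters GGAATG were found in Elf3 and Gata2 (12.6% of all promoters), and the GATA letters AGATAA or TGATAA in none of the 6 (16.6% of all promoters). TTTATG or TTTATT, the letters of CDX factors, were found in the windows of Elf5 and Eomes and in 25.5% of all promoters. Matches overlapped no other match within these windows. Such matches describe the sequence only.

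Of the 9 factors tested, 7 (Cdx2, Eomes, Gata3, Tfap2c, Tfap2a, Elf3 and Tead4) had a lower CPM in each NOD library than in B6, and 2 (Gata2 and Hand1) had a higher CPM in each. The same held for 39.4% (lower) and 45.3% (higher) of the genes tested. None of the 9 factors passed the test between NOD and B6 in either direction (edgeR adjusted p below 0.05 with a change of 2-fold or more), against 10.3% of all genes tested called higher and 7.39% called lower. An unadjusted p under 0.05 was found for 6 of the 9 and for 39.9% of all genes tested. The adjusted p of these 6 factors lay between 0.0503 for Eomes and 0.0859 for Gata2, so that the call depends on the test. With DESeq2, 4 factors were called lower (12.9% of all genes tested) and Gata2 and Hand1 were called higher (16.2%). With limma-voom none was called, as was no other gene, and 4 of the 9 had an unadjusted p under 0.05. The smallest limma-voom adjusted p of any gene was 0.0501, just above the limit. Other choices in edgeR gave calls for some factors, with the share of all genes called in the same direction in brackets. With DESeq2 size factors 1 factor was called lower (8.27%) and 0 higher (10.2%), and with total counts only 2 were lower (7.83%) and 0 higher (7.17%). Upper-quartile factors called 0 factors lower (4.85%) or higher (7.03%). A filter of at least 1 CPM in 1 library gave 3 lower (11%) and 1 higher (14.3%). After thinning of the NOD libraries to the B6 total, 3 were lower (11.2%) and 0 higher (12.6%). The single dispersion that edgeR chooses by default made 3 factors lower (Eomes, Tfap2c and Tfap2a, 9.5%) and 0 higher (8.52%), and the trended dispersion was taken when both sets of calls were known.

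The median log2 fold change of the 9 factors was -0.95, whereas that of all genes tested was 0.26. From 1 NOD library at a time, the median of the factors was -0.97 without NOD 1 and -0.48 without NOD 2.

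**Figure D1:**
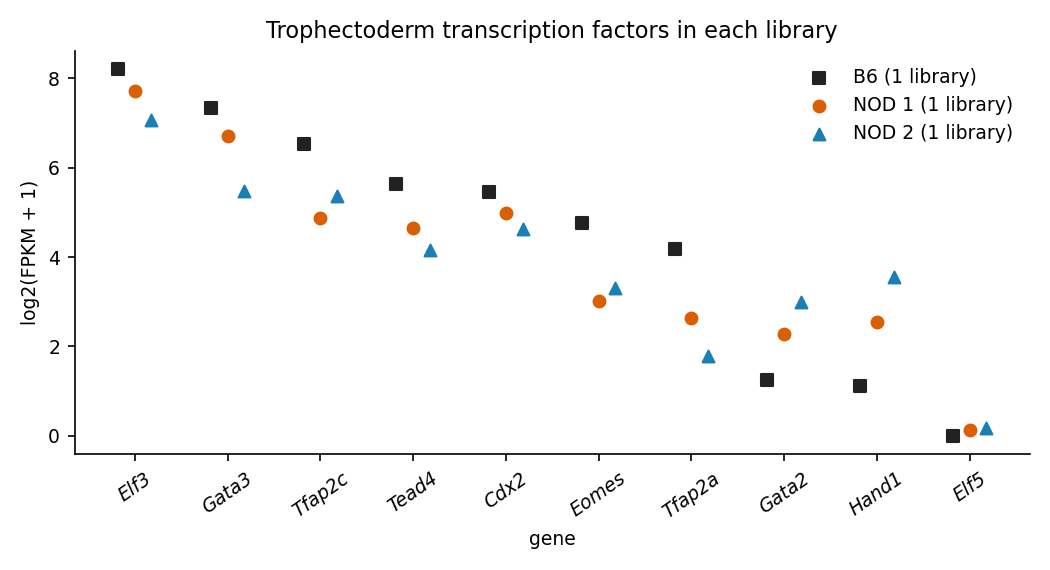
Level of each of the 10 factors as log2(FPKM + 1) in B6 (squares), NOD 1 (circles) and NOD 2 (triangles), 1 library each, ordered by the level in B6. For 7 factors the B6 library is the highest of the 3, for Gata2 and Hand1 it is the lowest, and Elf5 lies near 0 in all of them.

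The levels of the factors within a library spanned a wide range, and Elf3 and Gata3 led in each. Together these 2 genes held 66.5% of the summed FPKM of the 10 factors in B6, 75.03% in NOD 1 and 61.8% in NOD 2. In B6 the order by FPKM was Elf3 (294), Gata3 (159), Tfap2c (91.4), Tead4 (48.3), Cdx2 (42.9), Eomes (26.2), Tfap2a (17.2), Gata2 (1.38), Hand1 (1.18) and Elf5 (0). In NOD the means were 171 ± 53.3 FPKM for Elf3 and 73.1 ± 42.0 for Gata3, followed by 34.05 ± 8.28 for Tfap2c, 27.1 ± 4.84 for Cdx2 and 20.3 ± 5.11 for Tead4. Elf3 stood above Gata3 in each library, but Tfap2c and Cdx2 changed places between NOD 1 and NOD 2, and Cdx2 and Tead4 between B6 and NOD. Below them in NOD came Eomes (8.04 ± 1.27), Hand1 (7.79 ± 4.15), Gata2 (5.37 ± 2.19) and Tfap2a (3.81 ± 1.95), whose means differed from one to the next by less than the larger of their SDs. Apart from Elf5, every factor had at least 1 FPKM in each library. Cdx2 lay at percentile 82.2 of the genes with a count in B6 against 79.2 in NOD 1 and 76.5 in NOD 2, and Elf3 between percentiles 93.0 and 97.4.

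Tead4, the TEAD family partner of Yap1, stands at the head of the network. Tead4 (NM_011567, chromosome 6, 128227143 to 128300813, mm10, 12 exons) had 1850 counts in B6 against 2484 in NOD 1 and 1851 in NOD 2. This was 135.8 CPM in B6 and 64.8 ± 14.7 in NOD, so that both NOD libraries were lower than B6 and lay closer to each other than to it. The log2 fold change was -1.07 (standard error 0.33, edgeR adjusted p = 0.0838), and the call was made in 1 of 10 settings of scaling, filter and test.

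Cdx2, the homeobox factor that fixes the trophectoderm fate, had the adjusted p farthest from the threshold. Cdx2 (NM_007673, chromosome 5, 147300900 to 147307249, 3 exons) had 1147 counts in B6 against 2211 in NOD 1 and 1830 in NOD 2, or 84.2, 66.9 and 53.8 CPM. Both NOD libraries were lower than B6, and the difference did not pass (log2 fold change -0.48, standard error 0.33, edgeR adjusted p = 0.327). Gata3, a zinc finger factor that acts in parallel with Cdx2 downstream of Tead4, was among the most abundant of the set. Gata3 (NM_008091, chromosome 2, 9857078 to 9878600, 6 exons) had 6383 counts in B6 against 11167 in NOD 1 and 5032 in NOD 2, or 468 CPM, 338 and 148. NOD 2 had less than NOD 1 by more than 2-fold, and the difference from B6 did not pass (log2 fold change -0.95, standard error 0.50, edgeR adjusted p = 0.219).

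Eomes, a T-box factor of trophoblast stem cells, came closest to the threshold. Eomes (NM_010136, chromosome 9, 118478189 to 118486132, 6 exons) had 1214 counts in B6 against 898 in NOD 1 and 1199 in NOD 2, although the NOD libraries were deeper. Its level was 89.1 CPM in B6 against 27.2 in NOD 1 and 35.2 in NOD 2, or 31.2 ± 5.70 in NOD. Both NOD libraries thus lay far below B6 and close together. The log2 fold change was -1.51 (standard error 0.36, edgeR adjusted p = 0.0503), with adjusted p from 0.00337 to 0.0961 over the settings tried, of which 6 of 10 made the call.

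The AP-2 factors Tfap2c and Tfap2a both had a lower CPM in each NOD library than in B6, and neither passed the test. Tfap2c, which supports trophoblast stem cells and is also used in germ cells and the naive epiblast, lies on chromosome 2 (NM_009335, 172549593 to 172558621, 7 exons). It had 3234 counts in B6 against 2702 in NOD 1 and 4082 in NOD 2, or 237 CPM against 100.9 ± 27.02 in NOD. The log2 fold change was -1.23 (standard error 0.32, edgeR adjusted p = 0.0603), and 5 of 10 settings made the call. Tfap2a (NM_011547, chromosome 13, 40715675 to 40733823, 7 exons) had 614 counts in B6 against 502 in NOD 1 and 251 in NOD 2. At 45.1 CPM in B6 against 15.2 in NOD 1 and 7.38 in NOD 2, it showed the lowest log2 fold change of the set, -1.998 (standard error 0.55, edgeR adjusted p = 0.0666), with the call in 4 of 10 settings.

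Among the ETS factors, Elf3 was high and Elf5 was near the limit of detection. Elf3, an epithelial factor, had the highest level of the 10 genes in each library. Elf3 (NM_001163131, chromosome 1, 135253574 to 135258472, 9 exons) had 7302 counts in B6 against 14087 in NOD 1 and 9610 in NOD 2, or 536 CPM, 426 and 282. Its log2 fold change of -0.60 (standard error 0.31, edgeR adjusted p = 0.212) did not pass the test, although both NOD libraries were lower than B6. Elf5, which locks trophoblast stem cells into their lineage and is silenced by DNA methylation in the ICM lineage, lies on chromosome 2 (NM_010125, 103424068 to 103450988, 7 exons). It had 0 counts in B6, which allows up to 0.220 CPM (3 counts), 7 counts in NOD 1 (0.212 CPM) and 10 in NOD 2 (0.294 CPM). These levels were about as high as the limit in B6, so that no difference was detectable at this depth, and Elf5 was not tested.

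Gata2 and Hand1 stood out from the other factors by their direction. Gata2, a zinc finger factor of trophoblast and of blood progenitors, lies on chromosome 6 (NM_008090, 88198664 to 88207032, 6 exons). It had 56 counts in B6 against 419 in NOD 1 and 810 in NOD 2, or 4.11 CPM in B6 and 18.2 ± 7.87 in NOD. With the counts of both NOD libraries summed, the ratio of NOD to B6 was 4.46. Its exact 95% interval for counting error ran from 3.41 to 5.94. Hand1, a basic helix-loop-helix factor of giant cells, lies on chromosome 11 (NM_008213, 57828713 to 57832147, 2 exons). It had 28 counts in B6 against 312 in NOD 1 and 735 in NOD 2, or 2.06 CPM in B6 and 15.5 ± 8.60 in NOD. The ratio from the summed counts was 7.60 (5.22 to 11.5). In both genes each NOD library lay above B6, and NOD 2 lay above NOD 1. The log2 fold changes were 2.15 for Gata2 (standard error 0.67, edgeR adjusted p = 0.0859) and 2.91 for Hand1 (standard error 0.83, edgeR adjusted p = 0.0706). Intervals from counts cover counting error only, since reads amplified by PCR without molecular identifiers are not independent molecules. They do not cover the spread between the NOD libraries. From NOD 1 alone the log2 difference from B6 was 1.63 for Gata2 and 2.20 for Hand1, and from NOD 2 alone 2.53 and 3.39.

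**Figure D2:**
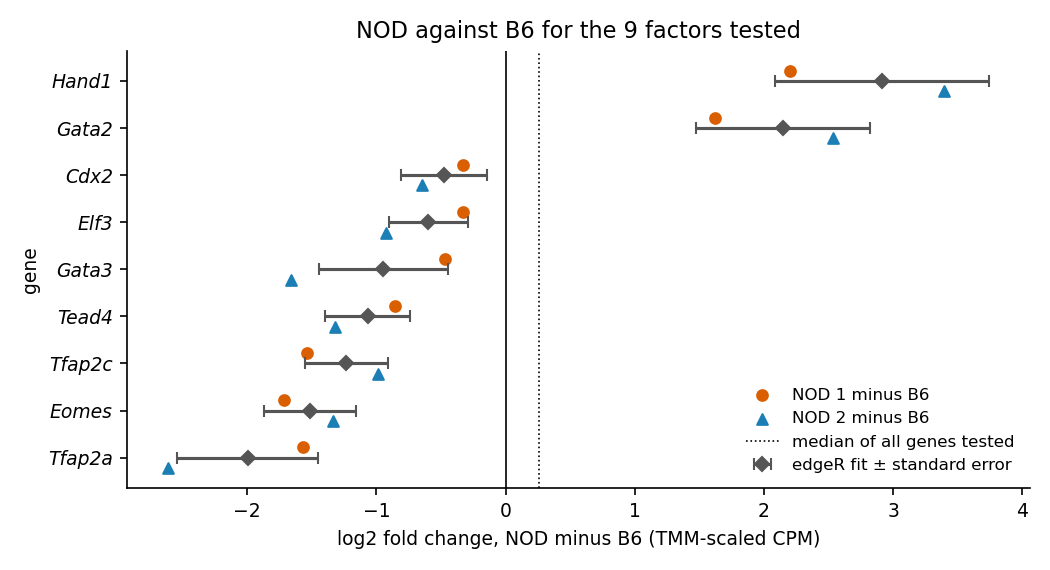
Log2 fold change of NOD against B6 for the 9 factors tested, as fitted by edgeR with its standard error (diamonds and bars) and from NOD 1 (circles) or NOD 2 (triangles) alone. The dotted line marks the median of all genes tested, 0.26, and 7 factors lie to the left of 0 with both libraries while Hand1 and Gata2 lie to the right.

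The NOD libraries differed from each other by more than counting error in each of the 9 factors tested. That error is small at these counts and does not cover other variation between libraries. Between NOD 1 and NOD 2 a difference of at least 2-fold was found for Gata3, Tfap2a and Hand1, 3 of the 9 factors tested, whereas 25% of all genes tested differed as much. The ratio of NOD 2 to NOD 1 was 0.438 for Gata3 (exact 95% counting interval 0.423 to 0.453), 0.486 for Tfap2a (0.416 to 0.566) and 2.29 for Hand1 (2.002 to 2.62). It was closest to 1 for Cdx2 (0.804) and Eomes (1.30). NOD 2 was thus lower than NOD 1 in Cdx2, Gata3, Tfap2a, Elf3 and Tead4 and higher in Gata2, Hand1, Tfap2c and Eomes. The interval of Elf5 was wide (0.477 to 4.30) and included 1.

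Summed over the 10 factors, the level was 1602 CPM in B6 against 1053 in NOD 1 and 747 in NOD 2, which is 0.657 and 0.466 times that of B6. Fewer trophectoderm cells and less of these transcripts per cell cannot be told apart in such sums. The sum is dominated by Elf3 and Gata3, and a mean of logs gives each factor the same weight. The mean log2(FPKM + 1) over the 10 factors was 4.45 in B6 against 3.95 in NOD 1 and 3.85 in NOD 2. For 10 genes of the ICM and epiblast (Pou5f1, Sox2, Nanog, Fgf4, Klf2, Klf4, Esrrb, Zfp42, Tdgf1 and Prdm14) it was 3.76, 3.63 and 4.26. The difference between both means was 0.69 in B6 against 0.32 in NOD 1 and -0.41 in NOD 2. The factors thus had the higher mean in B6 and the ICM genes in NOD 2. The NOD mean was -0.04 ± 0.52, and NOD minus B6 came to -0.73, for which no test was run. Without NOD 1 the difference was -1.10 and without NOD 2 it was -0.37. The sign of single libraries depended on the summary. With medians over genes in place of means, the factors had the higher value in every library (0.58 in B6, with 0.45 for NOD 1 and 0.16 for NOD 2), and NOD minus B6 was -0.28. With all 16 ICM and epiblast genes, the values were 0.12 in B6 against -0.72 in NOD 1 and -1.26 in NOD 2, so that NOD minus B6 came to -1.11. In each of these summaries B6 was the highest and NOD 2 the lowest. Among the 10 ICM genes, Tdgf1 and Prdm14 were near 0 in B6 (0.833 and 0.031 FPKM). Tdgf1 had 15.4 FPKM in NOD 1 and 23.8 in NOD 2, and Prdm14 had 0.640 and 4.22. Sox2, Klf2, Klf4 and Esrrb went the other way, with a higher level in B6 than in each NOD library. How far the order and the difference of -0.73 depend on Tdgf1 and Prdm14 was not computed.

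The genes of the trophectoderm epithelium were counted separately from the factors that control them. Krt8 and Krt18, which form the keratin filaments of this epithelium, were abundant in each library, with 558 CPM of Krt8 in B6 against 324 in NOD 1 and 318 in NOD 2. Krt18 had 1464 CPM in B6 against 812 in NOD 1 and 852 in NOD 2. Its log2 fold change was -0.82 (standard error 0.18, edgeR adjusted p = 0.0453), below the 2-fold limit. Aqp3, a water channel, and Fgfr2, a receptor for FGF4 from the ICM, had log2 fold changes of -0.10 and 0.01. Of the 18 genes of the list, Cldn4, a tight junction protein, and Dppa1 were up-regulated (log2 fold change 1.34 and 2.54, edgeR adjusted p = 0.0290 and 0.0212). Among all genes tested, 10.3% were called higher. None of the list was down-regulated (7.39% of all genes tested), while DESeq2 and edgeR with total counts only each called 1 lower, limma-voom none, and 3 had an unadjusted edgeR p below 0.05 in that direction. The median log2 fold change of the list was 0.26, the same as that of all genes tested. With these genes in place of the factors, the difference from the ICM genes was 2.06 in B6 against 2.38 in NOD 1 and 1.5998 in NOD 2.

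**Figure D3:**
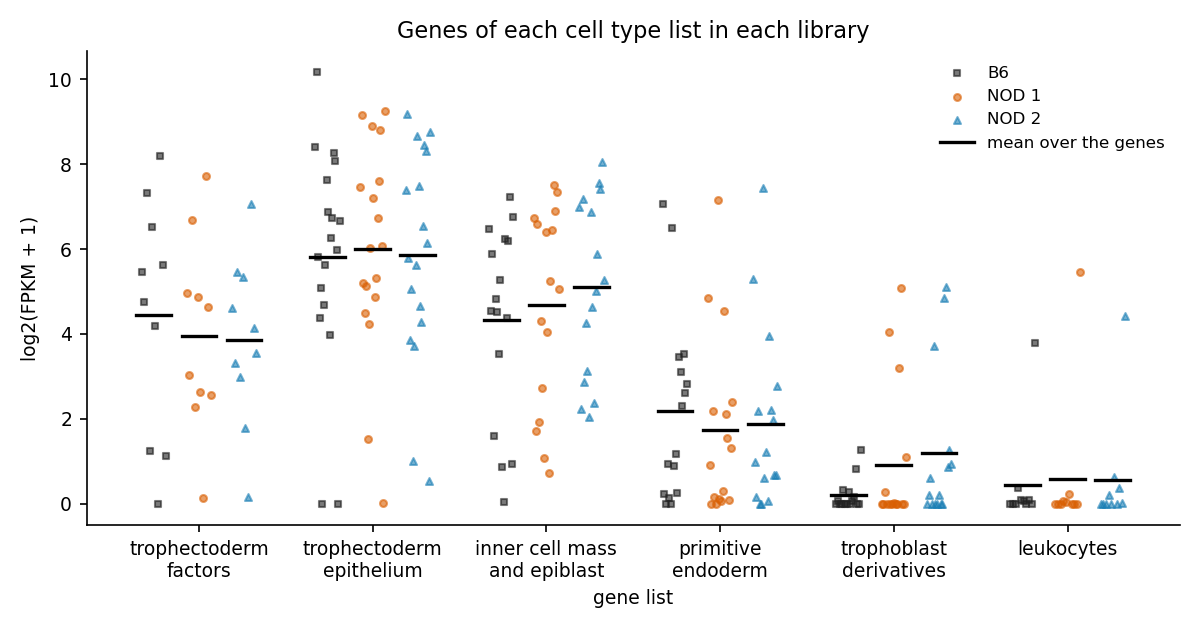
Log2(FPKM + 1) of each gene of 6 lists in B6 (squares), NOD 1 (circles) and NOD 2 (triangles), with black bars for the mean over the genes. The mean of the trophectoderm factors is 4.45 in B6 and 3.85 in NOD 2, that of the trophectoderm epithelium lies between 5.81 and 6.002, and that of the ICM and epiblast genes is highest in NOD 2, at 5.11.

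Upstream of the factors, the 21 genes of the Hippo, TEAD and Notch inputs gave 2 down-regulated genes, a share near the 7.39% of all genes tested. No gene of the list was up-regulated, against 10.3% of all genes tested (2 had an unadjusted p under 0.05 in that direction, and DESeq2 and limma-voom called none higher). Notch1, a receptor whose signal adds to that of Yap1 at Cdx2, fell from 43.8 CPM in B6 to 3.96 ± 1.20 in NOD (log2 fold change -3.47, standard error 0.49, edgeR adjusted p = 0.0242). Klf5, a factor needed for trophectoderm and ICM alike, fell from 993 CPM to 348 ± 94.7 (log2 fold change -1.51, standard error 0.29, edgeR adjusted p = 0.0354). Yap1 itself had 89.5 CPM in B6 and 56.8 ± 17.02 in NOD, and its relative Wwtr1 (Taz) had 94.7 and 139 ± 9.06. Neither passed the test (edgeR adjusted p = 0.266 and 0.203), nor did the kinases Lats1 and Lats2, which hold Yap1 in the cytoplasm (0.233 and 0.240). The median log2 fold change of the list was -0.31.

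In the ICM and epiblast list of 16 genes, 5 were up-regulated (Zfp42, Tdgf1, Gdf3, Utf1 and Spp1) and Sox2 and Sall4 were down-regulated, with a median log2 fold change of 0.90. The shares over all genes tested were 10.3% higher and 7.39% lower. Pou5f1 had 109 CPM in B6 and 164 ± 24.1 in NOD (edgeR adjusted p = 0.195), and Nanog had 118 CPM in B6 and 277 ± 84.3 in NOD (edgeR adjusted p = 0.0752). Sox2, which marks the ICM, was lower in NOD, from 49.8 CPM to 7.68 ± 2.73 (log2 fold change -2.70, standard error 0.48, edgeR adjusted p = 0.0327). Spp1 showed the largest difference of the list, from 1.17 CPM in B6 (16 counts) to 318 ± 116 CPM in NOD. With the counts of both NOD libraries summed, this is 271 times the B6 level (exact 95% limits 167 and 475). In the primitive endoderm list (15 tested, median log2 fold change -0.51), Gata6 was down-regulated and Pdgfra up-regulated, while Sox17 had no count in B6 or NOD 1 and 16 counts in NOD 2. With total counts only, upper-quartile factors or the single dispersion, no gene of the primitive endoderm list was called higher.

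Of 15 genes of later trophoblast, 8 were tested and 3 were up-regulated in NOD. Plac1, a placental surface protein, had 0.734 CPM in B6 (10 counts) against 37.1 ± 1.30 CPM in NOD (edgeR adjusted p = 0.0201). With the counts of both NOD libraries summed, this is 50.6 times as much (exact 95% limits 27.5 and 106). Prl3b1, placental lactogen II, had 3 counts in B6 against 485 in NOD 1 and 410 in NOD 2, a ratio of 60.6 (20.7 to 294, edgeR adjusted p = 0.0246). Phlda2, an imprinted gene that limits placental growth, had 1 count in B6 against 204 in NOD 1 and 731 in NOD 2, a ratio of 190 (34.0 to 7509, edgeR adjusted p = 0.0391). With upper-quartile factors and with the single dispersion, 2 of the list were called higher. Genes near 0 in B6 passed the filter on low counts through NOD and could hardly be called lower, so that the filter favours this count and nothing is read from it against the 10.3% of all genes tested. Tpbpa, a spongiotrophoblast marker, and Prl3d1, placental lactogen I of giant cells, had 0 counts in each library, and Gcm1 had 1 count in B6 against 0 in NOD 1 and 11 in NOD 2.

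Ratios between genes of the same library need no scaling between libraries, and the pairs were chosen after their values had been seen. The FPKM of Gata3 was 115 times that of Gata2 in B6 (exact 95% counting interval 88.4 to 152), 26.9 times in NOD 1 (24.4 to 29.7) and 6.27 times in NOD 2 (5.82 to 6.76). The ratio of these related factors thus differed among the libraries by more than counting error. That error is small at these counts and does not cover other variation between libraries. For Tfap2c over Tfap2a the ratio was 5.32 in B6 against 5.43 in NOD 1 and 16.4 in NOD 2, so that NOD 1 was like B6 and NOD 2 stood apart. Eomes over Cdx2 gave 0.611 in B6 against 0.234 in NOD 1 and 0.378 in NOD 2. Against Pou5f1, which represses Cdx2 and is repressed by it, the ratio of Cdx2 was 0.484 in B6 against 0.287 in NOD 1 and 0.187 in NOD 2. Gata3 over Nanog gave 2.72 in B6 against 1.07 in NOD 1 and 0.302 in NOD 2. Against the keratin Krt18, the ratio of Cdx2 was 0.0374 in B6 against 0.0536 in NOD 1 and 0.0410 in NOD 2, and that of Elf3 was 0.256, 0.367 and 0.232. For Tfap2c over Krt18 the ratio was 0.0797 in B6 and lower in both NOD libraries (0.0495 and 0.0692). Relative to Krt18, Cdx2 and Elf3 were thus higher in NOD 1 than in B6, and Tfap2c was lower.

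**Figure D4:**
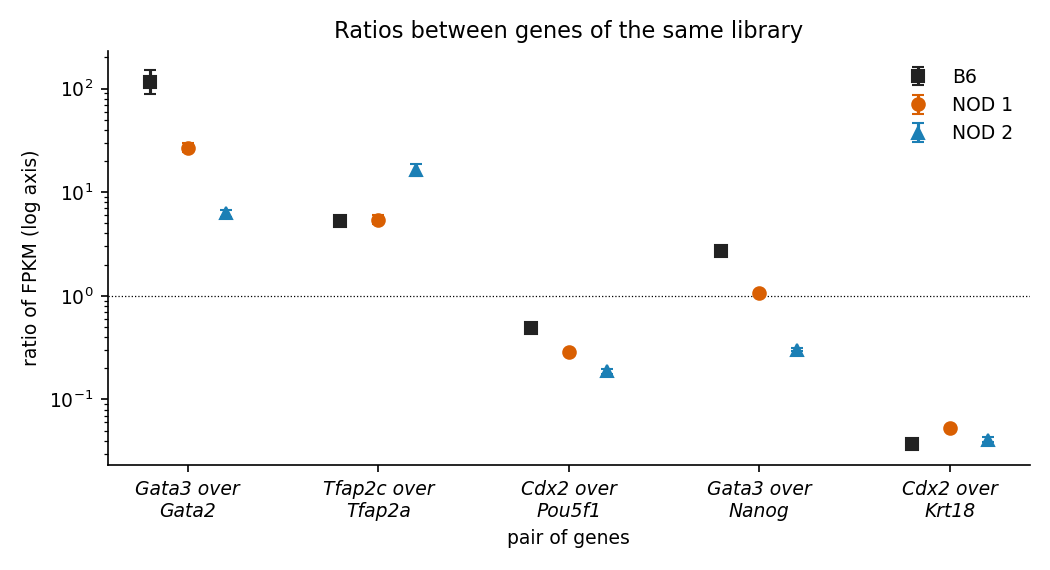
Ratio of FPKM between pairs of genes of the same library on a log axis, in B6 (squares), NOD 1 (circles) and NOD 2 (triangles), with exact 95% intervals for counting error, which are mostly smaller than the symbols. Gata3 over Gata2 is 115 in B6 and 6.27 in NOD 2, while Cdx2 over Krt18 lies between 0.0374 and 0.0536.

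Trophectoderm and ICM genes were both found in each library. How much trophectoderm a library held cannot be given as a share of cells, since the sources differ on whether the input was whole blastocysts or ICMs and no library labelled as isolated trophectoderm was analysed here. Of cell types outside the embryo, leukocytes were checked with 10 genes, of which Ptprc, Lyz2 and Fcer1g had 0 counts in each library and the list summed to between 14.8 and 54.8 CPM, most of it from Cd68. The 12 genes of the reproductive tract and its stroma summed to 1.39 CPM in B6 against 11.8 in NOD 1 and 6.64 in NOD 2. The 14 oocyte and cumulus genes summed to 35.7 CPM in B6 against 12.2 in NOD 1 and 7.73 in NOD 2, in the same order as the summed factors, and their part in the result was not tested. In none of these lists was a gene called by edgeR (1 oocyte gene lower and 1 tract gene higher at an unadjusted p under 0.05) or by limma-voom, and DESeq2 called 1 leukocyte gene higher. Over all genes tested, edgeR called 10.3% higher and 7.39% lower, and DESeq2 called 16.2% higher. Of these lists 7 oocyte and cumulus genes, 4 tract genes and 3 leukocyte genes passed the filter on low counts. For every list in the text, limma-voom and edgeR without the filter on low counts called no gene.

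Reads were counted on both strands together, and Eomes, Gata3, Tfap2a and Elf3 each overlap antisense genes of the GENCODE M21 annotation of GRCm38 that have no row of their own in the count table. Tead4 overlaps Gm21893, a processed pseudogene on the other strand, which has no row either. Reads from such genes that fall on exons of a factor would be counted with it. Words of 50 bases shared with a transcript of a different gene made up 8.76% of Tfap2a, 5.72% of Elf3, 2.28% of Eomes, 1.86% of Gata3 and 0.330% of Tead4, where the other gene was Tead3. No word was shared for Cdx2, Gata2, Tfap2c, Elf5 and Hand1, and none was shared within the GATA or the AP-2 pair.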

How the data were processed

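RNA of mouse blastocysts was measured in 3 low-input libraries (B6, 1; NOD, 2), grouped by labelled strain. The authors made cDNA with SMART-Seq V4 (19 PCR cycles) and sequenced 50 bases from one end. They used STAR for alignment to mm10 (version 2.2.0c in the submitters' processing notes, another version in the methods) and HOMER for counts over RefSeq exons, with 1 transcript listed for each gene. The deposited values are these raw counts, from 12505685 in B6 to 36171013 in NOD 2. How reads with several matches were treated is not given in the sources used here.

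Genes were kept by filterByExpr (minimum count 10), scaled by TMM (factors of 1.09 in B6 against 0.975 in NOD 1 and 0.941 in NOD 2) and tested over 14456 genes with edgeR 4.0.16 in R 4.3.3 (quasi-likelihood test, legacy set to false, trended dispersion, prior count 0.125, Benjamini-Hochberg adjustment). Calls needed an adjusted p below 0.05 with a change of 2-fold or more, the limits that the study set for genes entering its pathway analysis of ES cells. Standard errors were derived from the log2 fold change and its F statistic, with 1 residual degree of freedom. FPKM was computed from the listed length and total counts. Intervals are Clopper-Pearson (scipy 1.17.1). Ratios of NOD to B6 that carry such an interval use the summed counts of both NOD libraries. DESeq2 1.42.0, limma 3.58.1, other scalings, filters and pseudocounts were tried.

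The factors and gene lists were chosen with earlier results of these data known, and the trended dispersion follows an earlier treatment of them. Named genes are the 10 factors, the first 4 genes of each list as written and up to 3 called genes with the largest change and a mean of at least 10 CPM. Other called list members, Cd68 and the overlapping genes were named after their values were seen, and not all genes under the rule are printed. Each factor was matched to its GENCODE M21 transcript by RefSeq identifier.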

Additional observations from a re-analysis of the deposited data

How the results depend on the processing

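With DESeq2's Wald test 4210 genes were called in place of 2552, and none was called with limma-voom (3924 with an unadjusted p under 0.05) or in edgeR without the filter on low counts (5568). The smallest adjusted p was 0.0501 with limma-voom and 0.0649 in edgeR without the filter. Scaling by total counts only moved the median of all genes from 0.26 to 0.07 and the share of calls that were higher from 58.1% to 47.8% (47.3% with the single dispersion). Of the factors, where the test used in the report called 0, the number called lower was 1 with DESeq2 size factors, 2 with total counts only, 3 with a filter of at least 1 CPM in 1 library and 4 with DESeq2's Wald test. It was 3 with NOD thinned to the B6 total and 3 with the single dispersion that edgeR chooses by default, both of which were added after the data had been seen. The number called higher was 1 with the 1 CPM filter and 2 with DESeq2's Wald test, and 0 with each of the other settings. No factor changed direction in any setting. Without 1 NOD library, the median of the factors ranged from -0.97 to -0.48 and the difference between factors and ICM genes from -1.10 to -0.37. With epithelial genes in place of the factors, the latter was -0.069, with medians over genes -0.28 and with all 16 ICM and epiblast genes -1.11. The cause of these changes was not tested. Calls without 1 NOD library were not computed, since no residual degrees of freedom are left. No paired analysis was possible, since B6 has 1 library and the labels used here pair it with no NOD library. Depth limits Elf5 most, with up to 0.220 CPM allowed by 0 counts in B6.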
